A study of Mus musculus with 16 samples.

Results

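Transcripts of 9 postsynaptic density scaffold genes, Shank1, Shank2, Shank3, Dlgap1, Dlgap2, Dlgap3, Dlgap4, Dlg2 and Dlg4, were followed in mouse primary cortical neurons after knockdown of Nup153, which encodes a protein of the nuclear pore's basket. The 9 were chosen by name from 3 scaffold families, with earlier results of these data known. All 9 were found among the 26371 gene symbols that both count tables hold. They are not the whole families: Dlg1 and Dlg3 are counted below as partners of the scaffold. Neurons came from cortices of C57/BL6 embryos at embryonic day 17.5 to 19.5, pooled by litter, so that each replicate is 1 litter. Every culture received an adeno-associated virus (AAV) on day 8 in vitro (DIV) and was collected on DIV 13. At basal state, 2 libraries carried the hairpin shNup153-1, 2 the hairpin shNup153-2 and 4 the control hairpin shControl. Silenced cultures, 3 with shNup153-2 and 3 with shControl, had also been given tetrodotoxin (TTX) at 1 to 2 µM for 24 hours, which blocks action potentials, and D-AP5 at 100 µM for 6 hours, which blocks NMDA receptors. There were no silenced cultures with shNup153-1, and no untransduced cultures were analysed here. Samples went on to sequencing only where the knockdown sufficed, per the labels, so they are not an unselected sample of treated cultures.

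The postsynaptic density is the protein mesh under the membrane of excitatory synapses. Its scaffolds form layers: Dlg proteins (PSD-95, encoded by Dlg4, and PSD-93, encoded by Dlg2) hold glutamate receptors and adhesion proteins, Dlgap proteins (also called GKAP or SAPAP) bind the guanylate kinase domain of the Dlg proteins, and Shank proteins bind the Dlgap proteins and connect them to Homer and the actin cytoskeleton. In neuronal cultures the abundance of postsynaptic density proteins is known to shift with prolonged changes of activity.

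The members lie on 7 chromosomes of the mouse assembly GRCm38 (mm10), all on the plus strand, and each value below sums reads over a whole gene. Shank1 spans 44310253 to 44360572 and Shank2 144001928 to 144424494 on chromosome 7, and Shank3 89499623 to 89560261 on chromosome 15. Dlgap1 spans 69969073 to 70821413 on chromosome 17, Dlgap2 14095865 to 14847680 on chromosome 8, Dlgap3 127169204 to 127237022 on chromosome 4 and Dlgap4 156613705 to 156764363 on chromosome 2. Dlg2 spans 90476672 to 92449247 on chromosome 7, a span of 1972576 bases, and Dlg4 70016942 to 70047522 on chromosome 11, a span of 30581 bases. The summed length of the annotated exons ran from 4521 bases for Dlgap3 to 17890 bases for Dlgap1. Genes on the opposite strand cover 3.22% of the exon bases of Shank1 (1700008O03Rik), 2.95% of Shank3 (Gm15609), 0.514% of Dlgap1 and 0.284% of Dlgap4. With the strand setting of the counts unknown, reads of those stretches could belong to either gene.

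RefSeq promoters (GRCm38.p6) were matched for 6 of the 9 members. Those of Shank3 and Dlgap3 are shown because these members were past the threshold with both hairpins, and they differ in composition. Each is the 250 bases before an annotated start on the plus strand, chr15:89499358-89499607 for Shank3 and chr4:127172630-127172879 for Dlgap3. The Shank3 stretch ends just before the gene's span, which starts at 89499623. The Dlgap3 stretch lies inside the gene, whose span starts at 127169204, so the 2 stretches are unlike in position. Capitals mark matches on either strand to GGGCGG (the GC box, bound by Sp proteins) and GTGGGCG (the core of the Egr site), which overlap in some promoters.
Shank3: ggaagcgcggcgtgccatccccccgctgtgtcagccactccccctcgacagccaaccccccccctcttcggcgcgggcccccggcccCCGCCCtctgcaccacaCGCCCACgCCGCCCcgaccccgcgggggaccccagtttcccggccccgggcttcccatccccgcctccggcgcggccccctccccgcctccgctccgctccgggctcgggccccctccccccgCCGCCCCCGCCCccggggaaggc
Dlgap3: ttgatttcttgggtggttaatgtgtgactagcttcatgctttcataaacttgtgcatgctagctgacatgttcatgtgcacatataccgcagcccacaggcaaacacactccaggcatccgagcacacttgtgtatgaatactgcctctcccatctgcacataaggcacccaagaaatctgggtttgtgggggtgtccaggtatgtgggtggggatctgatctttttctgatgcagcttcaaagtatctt
The Shank3 stretch holds 82.4% G and C, more than 99.4% of the 32851 promoters searched, with 31 CpG dinucleotides, 4 GC boxes and 1 Egr core. The Dlgap3 stretch holds 46.8% G and C, more than 29.8% of promoters, with 2 CpG dinucleotides and none of the letters searched. Over all promoters the median was 52.4% G and C and 6 CpG dinucleotides. GC boxes occurred in 32.7% of promoters and Egr cores in 7.02%. The other motifs searched, TGACG (CRE half-site, in 17.8% of promoters), TGANTCA (AP-1, 6.75%) and CACGTG (E-box, 6.02%), were found in neither stretch.

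Depth and library structure set limits for all that follows. Total counts per library ran from 26863535 to 56299817. The shNup153-1 columns of the basal table no longer line up with their symbols over the last 9972 lines, where their correlation with shControl across genes was 0.0959, against 0.975 in the lines before. All 9 members lie in the lines before, from 505 to 14578, and comparisons with shNup153-1 use those lines alone. The 4 basal shControl libraries fell into 2 pairs: libraries 1 and 3 were alike, as were 2 and 4. Libraries also differed in how levels depend on transcript length. A doubling of length went with a log2 change of -0.144 and 0.0773 in the shNup153-1 libraries, 0.174 and 0.105 in basal shNup153-2, 0.131, -0.125, 0.0649 and -0.0695 in basal shControl libraries 1 to 4, and -0.0777 to 0.00786 in silenced libraries. Fits with this length trend removed are given where they change a call. Levels are in CPM, counts brought to a common library total, with totals scaled by TMM, a normalization that assumes most genes do not change. Nup153 itself stood at 17.1 and 28.0 CPM with shNup153-1, 13.5 and 11.6 with shNup153-2, and 52.9 to 94.5 in basal shControl (log2 fold change -1.67 with shNup153-1 and -2.52 with shNup153-2, edgeR adjusted p = 0.0122 and 0.00502). In silenced cultures it stood at 9.38 to 13.4 CPM with shNup153-2 and 52.1 to 64.2 with shControl (-2.40, adjusted p = 0.00534).

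**Figure D1:**
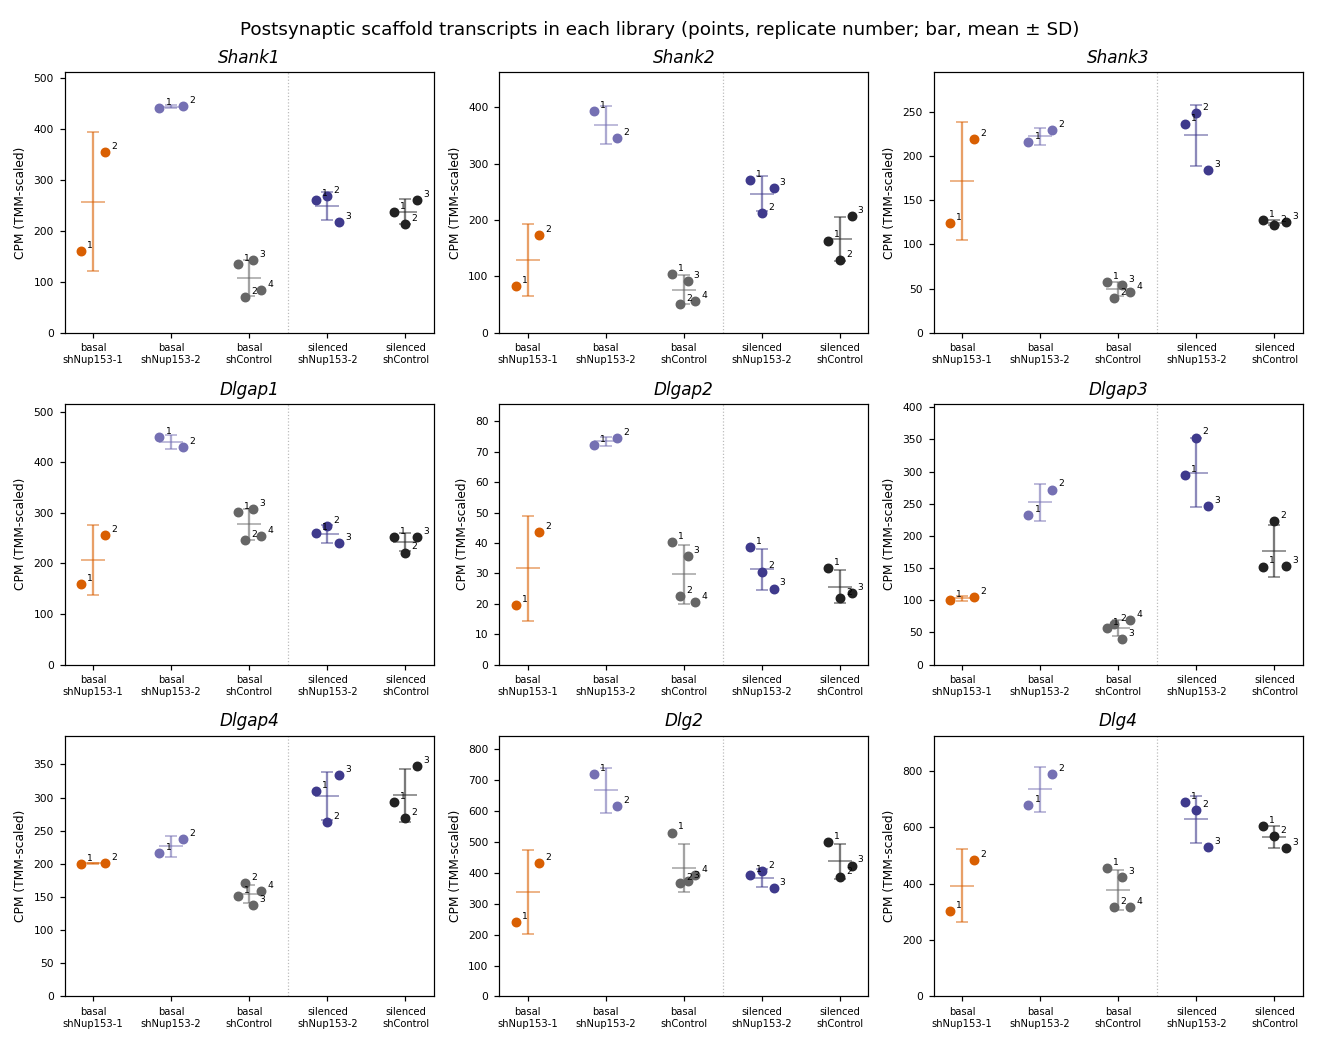
Level of each of the 9 scaffold transcripts (y axis, TMM-scaled CPM, from 0) in every library (points, labelled by replicate number), by group from left to right; horizontal bars give the mean and vertical bars the SD. Both basal shNup153-2 libraries lie above all 4 basal shControl libraries for each of the 9 genes, and the basal shNup153-1 libraries lie far apart for most. Of the 9, 6 passed FDR 0.05 with basal shNup153-2, and Dlgap1, Dlgap4 and Dlg2 did not. The share of all genes so separated from shControl was not computed.

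Per kilobase of exon, the Dlg genes were the most abundant members in basal shControl neurons and Dlgap2 the least. Mean levels were 28.5 ± 5.40 CPM per kb for Dlg4, 25.5 ± 4.76 for Dlg2, 18.3 ± 1.66 for Dlgap4, 15.5 ± 1.74 for Dlgap1, 12.6 ± 2.86 for Dlgap3, 10.2 ± 3.40 for Shank1, 7.07 ± 2.40 for Shank2, 5.37 ± 0.865 for Shank3 and 4.83 ± 1.58 for Dlgap2 (SD, n = 4). The only neighbours in this order whose ranges of mean ± SD do not overlap are Dlg2 and Dlgap4. In basal shNup153-2 neurons Dlgap3 stood at 55.8 ± 6.27 CPM per kb and Dlg4 at 55.4 ± 5.98 (SD, n = 2), with Shank1 at 42.2 ± 0.305 and Dlg2 at 41.0 ± 4.50. In basal shNup153-1 neurons Dlg4 was first at 29.6 ± 9.74 CPM per kb, and Shank1 followed at 24.5 ± 12.9 (SD, n = 2). In silenced neurons Dlgap3 stood at 66.0 ± 11.8 CPM per kb with shNup153-2 and 39.0 ± 9.08 with shControl, and Dlg4 at 47.3 ± 6.40 with shNup153-2 and 42.7 ± 3.00 with shControl (SD, n = 3 each). Dlgap2 was last in all 5 groups, between 4.18 CPM per kb in silenced shControl and 11.9 in basal shNup153-2. Counts over all exons do not tell isoforms apart, and in RNA of whole cultures fewer cells of a type and less RNA per cell cannot be told apart.

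The first comparison asked whether loss of Nup153 changes these scaffolds in neurons with ongoing activity. With shNup153-2, all 3 Shank genes, Dlgap2, Dlgap3 and Dlg4 rose, 6 of the 9 members, and none fell. The Shank genes and Dlgap3 stood 4.04-fold to 4.75-fold above shControl. With shNup153-1, Shank3 and Dlgap3 rose, 2 of 9, and none fell. Both hairpins were compared with the same 4 shControl libraries, so the sets of values are not independent. For comparison, 5.91% of the 19682 genes tested rose with shNup153-2 and 3.64% fell, and 6.52% of the 14529 genes tested rose with shNup153-1 and 7.05% fell (edgeR quasi-likelihood test, Benjamini-Hochberg adjusted p under 0.05). The median log2 fold change of the 9 members was 1.28 with shNup153-2, against -0.03 over all genes tested, and 0.35 with shNup153-1, against -0.02. Because the members were chosen with earlier results of these data known, these shares and medians are a description and not a test of enrichment.

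Shank genes encode the layer of the scaffold deepest in the spine. Shank1, a scaffold of excitatory synapses, was at 161 and 354 CPM with shNup153-1 and 441 and 446 CPM with shNup153-2, against 134, 69.9, 142 and 84.8 CPM in basal shControl. All libraries of both knockdowns stood above all control libraries, and within shControl libraries 1 and 3 were the higher pair. Shank1 rose with shNup153-2 (log2 fold change 2.01, SE 0.29, edgeR adjusted p = 0.00777), and its value with shNup153-1 was 1.23 (SE 0.37, adjusted p = 0.0569). Shank2, which like Shank1 binds Homer, was at 83.1 and 174 CPM with shNup153-1 and 393 and 345 CPM with shNup153-2, against 105, 51.7, 91.2 and 57.1 CPM in shControl. The shNup153-1 libraries overlapped the controls, since replicate 1 fell inside their range, while both shNup153-2 libraries stood above it. Shank2 rose with shNup153-2 (2.25, SE 0.29, adjusted p = 0.00633) and was 0.73 (SE 0.36, adjusted p = 0.219) with shNup153-1. Shank3, the family member whose loss in humans causes Phelan-McDermid syndrome, was at 124 and 219 CPM with shNup153-1 and 216 and 229 CPM with shNup153-2, against 57.7, 39.8, 53.6 and 46.3 CPM in shControl. Every knockdown library held more Shank3 than every control library. It rose by 1.77 (SE 0.25, adjusted p = 0.00438) on the log2 scale with shNup153-1 and by 2.14 (SE 0.19, adjusted p = 0.00285) with shNup153-2.

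The Dlgap genes, whose products link Dlg to Shank, did not all move together. Dlgap3 (SAPAP3, whose deletion in mice causes repetitive grooming) was at 101 and 106 CPM with shNup153-1 and 232 and 272 CPM with shNup153-2, against 57.2, 62.7, 39.3 and 69.5 CPM in shControl. The 3 groups do not overlap, and among the controls libraries 1 and 3 were the lower pair, the reverse of the Shank genes. It rose with shNup153-1 (log2 fold change 0.83, SE 0.22, edgeR adjusted p = 0.0439) and with shNup153-2 (2.11, SE 0.24, adjusted p = 0.005). Dlgap2, the least abundant member, was at 19.5 and 43.8 CPM with shNup153-1 and 72.3 and 74.5 CPM with shNup153-2, against 40.2, 22.5, 35.7 and 20.5 CPM in shControl. The shNup153-1 libraries lay on either side of the whole control range. Dlgap2 rose with shNup153-2 (1.28, SE 0.28, adjusted p = 0.0302) and was 0.07 with shNup153-1 (SE 0.37, adjusted p = 0.933). Dlgap1 was at 158 and 256 CPM with shNup153-1 and 449 and 431 CPM with shNup153-2, against 301, 246, 307 and 255 CPM in shControl. Its log2 fold changes, -0.44 (adjusted p = 0.242) and 0.64 (adjusted p = 0.0677), were of opposite sign and neither passed the threshold. Dlgap4 was at 200.1 and 201 CPM with shNup153-1 and 216 and 238 CPM with shNup153-2, against 151, 171, 138 and 158 CPM in shControl. All 4 knockdown libraries stood above all controls, by small amounts: 0.35 with shNup153-1 (adjusted p = 0.184) and 0.52 with shNup153-2 (adjusted p = 0.105).

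The Dlg genes, the layer next to the receptors, included the smallest change among the 6 members that rose with shNup153-2. Dlg4, which encodes PSD-95, was at 302 and 484 CPM with shNup153-1 and 678 and 789.8 CPM with shNup153-2, against 454, 316, 425 and 317 CPM in basal shControl. The shNup153-1 libraries lay on either side of the whole control range, and both shNup153-2 libraries lay above it. Dlg4 rose with shNup153-2 (log2 fold change 0.93, SE 0.22, edgeR adjusted p = 0.0395) and was 0.03 with shNup153-1 (SE 0.26, adjusted p = 0.956). Dlg2 was at 240.4 and 432 CPM with shNup153-1 and 719 and 615 CPM with shNup153-2, against 530.4, 366, 373 and 391 CPM in shControl. Library 1 stands apart from the other 3 controls. The log2 fold changes of Dlg2 were -0.33 (adjusted p = 0.484) and 0.65 (adjusted p = 0.1). Of the Dlg genes counted below as partners, Dlg1 was 0.07 with shNup153-1 and 0.68 with shNup153-2 (adjusted p = 0.868 and 0.0627). Dlg3 was -0.42 with shNup153-1 and -0.10 with shNup153-2 (adjusted p = 0.2 and 0.762).

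**Figure D2:**
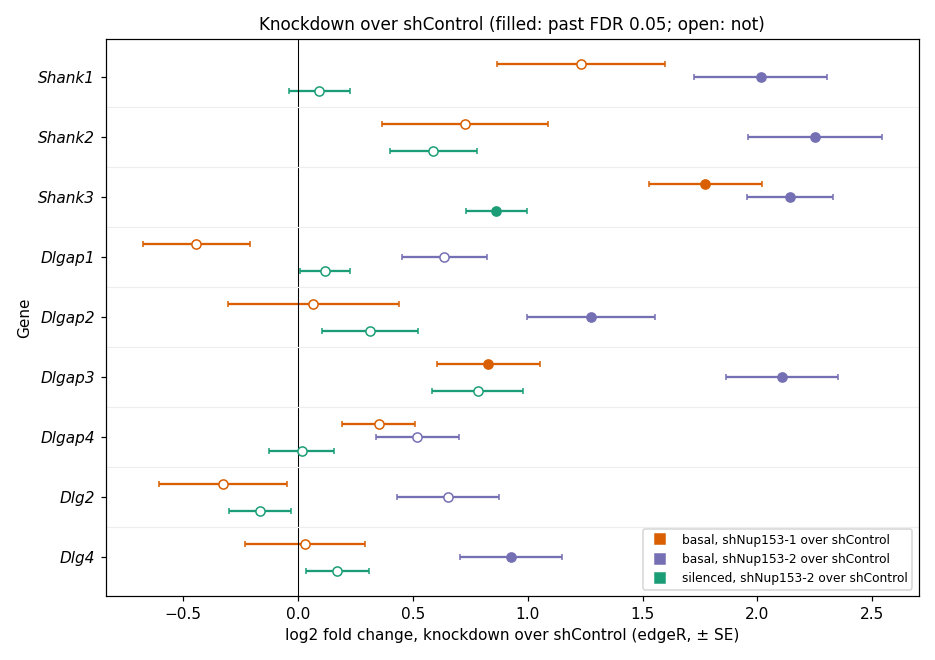
Log2 fold change of knockdown over shControl (x axis, edgeR, bars ± SE) for each scaffold gene (rows), at basal state with shNup153-1 and shNup153-2 and under silencing with shNup153-2; filled points passed FDR 0.05. Basal shNup153-2 values lie right of 0 for all 9 genes, from 0.52 for Dlgap4 to 2.25 for Shank2, and Shank3 is filled in all 3 comparisons. Of the 19682 genes tested with basal shNup153-2, 9498 had positive values.

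These basal calls rest on few libraries. With shNup153-2 replicate 1 left out, only Shank3 was called (log2 fold change 2.18, edgeR adjusted p = 0.0456), and with replicate 2 left out no member was (adjusted p = 0.0558 for Shank3). Sizes barely moved, for example 2.02 and 2.01 for Shank1 in these fits, in which the lone knockdown library is assumed to vary like the controls. Leaving out shControl replicate 2 or 4 lost Dlg4, leaving out replicate 4 also lost Dlgap2, and leaving out replicate 1 added Dlg2 (0.79, adjusted p = 0.0467). With shNup153-1, Shank3 stayed past the threshold without any 1 library, at 1.30 to 2.13. Dlgap3 lost its call without either shNup153-1 library (adjusted p = 0.159 and 0.148), without shControl replicate 1 (0.0751) and without shNup153-2 replicate 1 or 2, which share the estimate of spread. Shank1 was called without shControl replicate 3 (1.42, adjusted p = 0.0494). The 2 shNup153-1 libraries differed: without replicate 2 the values of Shank1 and Shank2 were 0.55 and 0.09, and without replicate 1 they were 1.69 and 1.17.

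Removing the length trend changed which members were called. With shNup153-2, 5 members rose in that fit, where 6.2% of all genes did. Dlg4 was no longer past the threshold (0.63, edgeR adjusted p = 0.0631), and Dlgap1 and Dlg2, with the longest exons, came to 0.24 and 0.28. With shNup153-1, 4 members rose, where 9.15% of all genes did: Shank1 (1.29, adjusted p = 0.00739) and Shank2 (0.80, adjusted p = 0.0335) joined Shank3 (1.81) and Dlgap3 (0.84). The Shank genes and Dlgap3 thus kept values of 1.78 to 2.04 with shNup153-2 and 0.80 to 1.81 with shNup153-1.

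**Figure D3:**
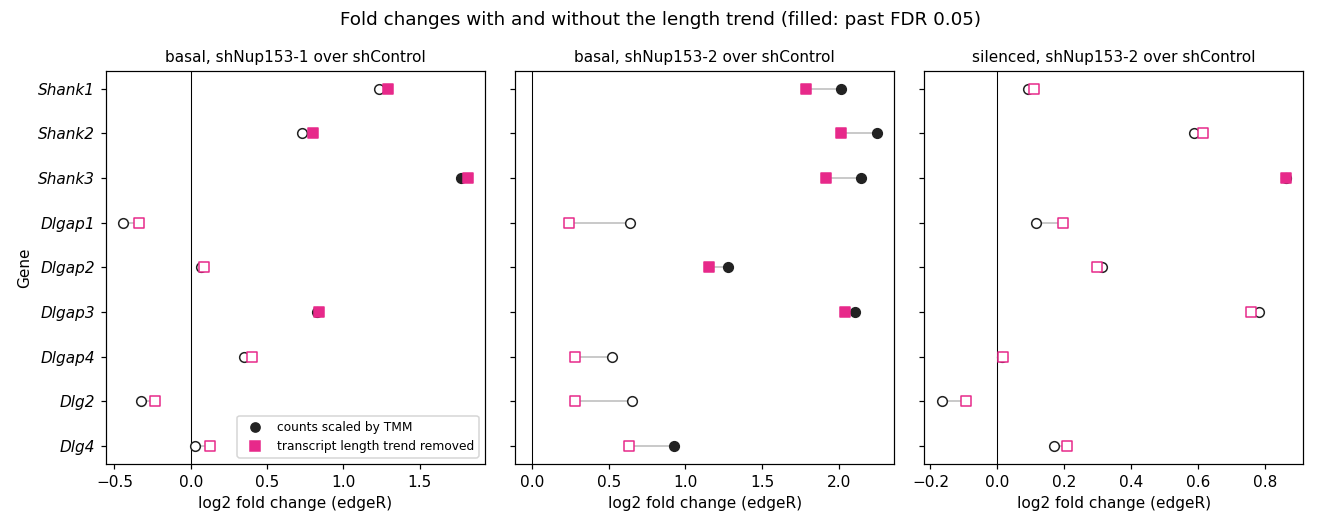
Log2 fold change over shControl (x axis, edgeR) of each scaffold gene (rows) in 3 comparisons, from counts scaled by TMM (dark circles) and with each library's trend on transcript length removed (pink squares); filled symbols passed FDR 0.05. With basal shNup153-2 all 9 values move left, most for Dlgap1 (0.64 against 0.24 after removal), while values of the Shank genes and Dlgap3 stay at 1.78 or above.

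The hairpins were also compared with each other, since both were made against the same transcript. Dlgap3 was higher with shNup153-2 than with shNup153-1 (log2 fold change 1.28, SE 0.27, edgeR adjusted p = 0.0379), 1 of 9 members, where 2.81% of genes were higher and 1.67% lower. All 9 log2 values were positive, as were those of 7321 of the 14529 genes tested. For 8 members, all but Shank3, both shNup153-2 libraries stood above both shNup153-1 libraries. The share of all genes with such a separation was not computed. Values that did not pass included 1.51 for Shank2 (SE 0.44, adjusted p = 0.0813), 1.20 for Dlgap2 (SE 0.43, adjusted p = 0.136) and 1.08 for Dlgap1 (SE 0.27, adjusted p = 0.0578), and the smallest was 0.17 for Dlgap4 (adjusted p = 0.589). Leaving out shControl replicate 1 or 4, either shNup153-2 library or either shNup153-1 library ended the call of Dlgap3 (adjusted p = 0.0554 to 0.239). Without shNup153-1 replicate 2, Dlgap1 was called in its place (1.47, adjusted p = 0.0428). DESeq2 called 5 members, where 8.06% of genes were higher. With the length trend removed Dlgap3 (1.24, adjusted p = 0.0262) and Shank2 (1.21, adjusted p = 0.0288) were higher, where 4.47% of genes were higher and 3.52% lower. Nup153 had a log2 fold change of -0.85 (SE 0.34, adjusted p = 0.164) for shNup153-2 over shNup153-1, and fell past the threshold with the length trend removed (-1.03, adjusted p = 0.0414).

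Under silencing, the comparison asked whether the same difference is present without action potentials and NMDA receptor activity. Shank3 rose with shNup153-2, 1 of 9 members, and none fell, while 1.61% of the 18965 genes tested rose and 1.83% fell. Shank3 was at 237, 249 and 184 CPM with shNup153-2, against 127, 122 and 125 CPM with shControl, so the groups were well apart (log2 fold change 0.86, SE 0.13, edgeR adjusted p = 0.0268). Dlgap3 was at 295, 353 and 246 CPM with shNup153-2, against 152, 224 and 153 CPM with shControl. Shank2 was at 271, 213 and 257 CPM with shNup153-2, against 164, 130 and 207 CPM with shControl. For both genes every knockdown library stood above every control, with log2 fold changes of 0.78 (SE 0.20, adjusted p = 0.0849) and 0.59 (SE 0.19, adjusted p = 0.147). In these cultures replicate numbers were taken to pair the libraries, a pairing read from these same data and not from the labels. With replicate number as a block 3 members rose, where 11.7% of all genes did. They were Dlgap3 (0.79, adjusted p = 0.00142), Shank3 (0.85, adjusted p = 0.00218) and Shank2 (0.61, adjusted p = 0.00661).

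The other members lay close to shControl in silenced cultures. Shank1 was at 261, 269 and 217 CPM with shNup153-2, against 237, 212 and 261 CPM with shControl, a log2 fold change of 0.09 (SE 0.13, edgeR adjusted p = 0.767). Dlg4 was at 689, 661 and 530.5 CPM with shNup153-2, against 604, 569.8 and 525 CPM with shControl (0.17, adjusted p = 0.559). Dlgap1, Dlgap2, Dlgap4 and Dlg2 also overlapped between groups, with values of 0.12, 0.31, 0.01 and -0.17. Without the block, the call of Shank3 was lost when silenced shNup153-2 replicate 1 or 2 or shControl replicate 1 or 3 was left out (adjusted p = 0.0532 to 0.148), with values of 0.78 to 0.86. Leaving out shControl replicate 2 added Dlgap3 (0.98, adjusted p = 0.0412).

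Silenced and basal cultures were then compared within each hairpin, although the 2 states were deposited in separate tables, so state and table cannot be told apart. In shControl neurons 5 of 9 members were higher in silenced than in basal cultures and none lower, where 6.09% of 20926 genes were higher and 6.27% lower. Dlgap3 was at 152, 224 and 153 CPM in silenced cultures, against 57.2, 62.7, 39.3 and 69.5 CPM in basal ones, the largest change among members (log2 fold change 1.57, SE 0.21, edgeR adjusted p = 0.00137). Shank3 was 1.28 (SE 0.15, adjusted p = 0.000704) and Dlgap4 0.92 (SE 0.14, adjusted p = 0.00248). Dlgap4 held 294, 269 and 347 CPM in silenced shControl, against 151, 171, 138 and 158 CPM in basal shControl, and no library of one state reached the other. Shank1 (237, 212 and 261 CPM in silenced shControl) and Shank2 were higher by 1.08 (adjusted p = 0.0105) and 1.07 (adjusted p = 0.0164). Dlg4 was at 0.53 (adjusted p = 0.0671), Dlgap1 at -0.25, Dlgap2 at -0.27 and Dlg2 at 0.02, and the libraries of these last 3 overlapped between states. Shank2 lost its call without silenced shControl replicate 1 or 3 (adjusted p = 0.0509 and 0.0715) and in a fit of only the groups compared (0.0559), and Dlg4 was called without basal shControl replicate 1 (0.65, adjusted p = 0.037). Dlg4 was also called with the replicate block (0.54, adjusted p = 0.0396) and with the length trend removed (0.67, adjusted p = 0.0079). The block here also covers basal replicate numbers, which did not meet the rule for pairs given below.

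In shNup153-2 neurons 4 of 9 members were lower in silenced than in basal cultures and none higher, where 12.3% of genes were lower and 9.39% higher. Of these members only Shank1 was also called in shControl, where it was higher in silenced cultures. Dlgap2 was at 38.6, 30.6 and 25.0 CPM in silenced cultures, against 72.3 and 74.5 CPM in basal ones (log2 fold change -1.25, SE 0.29, edgeR adjusted p = 0.0142). Dlgap1 was at 260, 274 and 240.3 CPM in silenced cultures, against 449 and 431 CPM in basal ones (-0.80, SE 0.15, adjusted p = 0.00629). Dlg2 was at 394, 406 and 352 CPM in silenced cultures, against 719 and 615 CPM in basal ones (-0.83, SE 0.20, adjusted p = 0.0155). For these genes, and for Shank1 (-0.86, SE 0.27, adjusted p = 0.0392), every silenced library stood below both basal ones. Shank3, Dlgap3 and Dlg4, at -0.03, 0.21 and -0.26, overlapped between states. Shank2 was -0.61 (adjusted p = 0.138), or -0.60 in a fit of only the groups compared, where it was called (adjusted p = 0.0215). Dlgap4 was 0.38 (adjusted p = 0.112), or 0.44 with the replicate block (adjusted p = 0.0476), which again covers the basal numbers. The 4 lower calls depend on the length trend: with it removed, Dlgap2 alone was lower (-1.06, adjusted p = 0.0146), where 10.7% of genes were. In that fit Dlgap4 was higher (0.71, adjusted p = 0.0362), as were 2423 of the 20926 genes tested. Shank3 and Dlg4 then had positive values, 0.34 and 0.26. They also depend on single libraries, since without basal shNup153-2 replicate 1 none of the 4 was called, and without basal shNup153-2 replicate 2 or silenced shNup153-2 replicate 3 only Dlgap1 was. Shank1 also lost its call without silenced shNup153-2 replicate 1 or 2 or silenced shControl replicate 1 (adjusted p = 0.0808, 0.0582 and 0.0534).

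**Figure D4:**
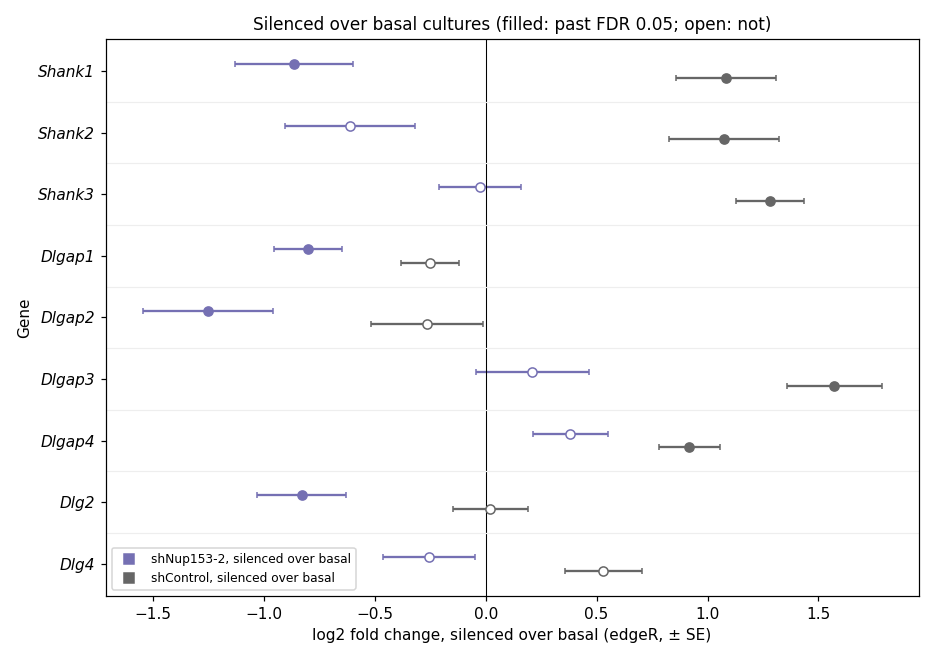
Log2 fold change of silenced over basal cultures (x axis, edgeR, bars ± SE) for each scaffold gene (rows), in shNup153-2 and in shControl neurons; filled points passed FDR 0.05. For every gene the shNup153-2 value lies left of the shControl value, and state and table cannot be told apart in either.

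Whether the effect of shNup153-2 differed between states was tested as an interaction, the log2 effect under silencing minus that at basal state. No gene of 20926 passed the threshold in the edgeR test, 0% in either direction, although 2393 had an unadjusted p under 0.05, or 11.4%. All 9 members had negative values, as had 10306 of the 20926 genes, and all 9 had an unadjusted p under 0.05. Shank1 was at -1.95 (SE 0.35, edgeR adjusted p = 0.101), Shank2 at -1.69 (SE 0.38, adjusted p = 0.162), Dlgap3 at -1.36 (SE 0.33, adjusted p = 0.184) and Shank3 at -1.31 (SE 0.24, adjusted p = 0.101). The remaining 5 members ran from -0.99 for Dlgap2 to -0.54 for Dlgap4 (adjusted p = 0.295 to 0.387). DESeq2 called 285 genes, with 0.951% of genes lower, and 4 members, all lower: Shank1 (adjusted p = 0.000272), Shank3 (0.00045), Shank2 (0.00975) and Dlgap3 (0.0224). With the length trend removed 0.0335% of genes were lower in edgeR, Shank1 among them (-1.67, adjusted p = 0.0469), and 5 members had an unadjusted p under 0.05. limma-voom called 1 gene and no member.

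Other components of the excitatory synapse were tested as lists. Of 30 partners of the scaffold, 5 rose and 2 fell with shNup153-2 at basal state, and 1 rose and 2 fell with shNup153-1. The shares over all genes were 5.91% higher and 3.64% lower with shNup153-2, against 6.52% higher and 7.05% lower with shNup153-1. Sipa1l2, a Rap GTPase-activating protein, rose with both (log2 fold change 1.39 with shNup153-2 and 1.08 with shNup153-1, edgeR adjusted p = 0.00806 and 0.0114). Agap2 (1.19) and Iqsec2 (0.83, an exchange factor for Arf GTPases) rose with shNup153-2. Cyld, a deubiquitinase found in the postsynaptic density, fell with shNup153-2 (-1.34, adjusted p = 0.0107) and with shNup153-1 (-1.80, adjusted p = 0.00671). Homer3, an adaptor that binds Shank, fell with shNup153-2 (-1.91, adjusted p = 0.0131), and Cnksr2, a scaffold that binds Dlg4, fell with shNup153-1 (-1.14, adjusted p = 0.0177). Median log2 fold changes of the list were 0.14 with shNup153-2 and -0.22 with shNup153-1, against -0.03 and -0.02 over all genes. In silenced cultures none of the 30 was called without the replicate block, and with it 8 rose and 4 fell, where 11.7% of all genes rose and 10.3% fell.

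Of 23 glutamate receptor and adhesion genes, 6 rose and none fell with shNup153-2 at basal state, with a median of 0.58, and 2 rose and 1 fell with shNup153-1, with a median of -0.06 (shares over all genes as for the partners). Grin1, the subunit common to NMDA receptors, rose by 1.12 with shNup153-2 and by 1.18 with shNup153-1 (edgeR adjusted p = 0.00862 and 0.00438). Grin2d rose by 2.41 with shNup153-2 and by 1.19 with shNup153-1 (adjusted p = 0.00688 and 0.0448), and was the 1 gene of the list that rose in silenced shNup153-2 cultures without the block (1.11, adjusted p = 0.0242), where with the block 7 rose and 1 fell. Cacng8, an auxiliary subunit of AMPA receptors, rose with shNup153-2 (0.89, adjusted p = 0.0222), and Gria1, an AMPA receptor subunit, fell with shNup153-1 (-1.10, adjusted p = 0.0241). Of 6 genes of the inhibitory postsynapse, Iqsec3 rose with both hairpins (1.37 with shNup153-2 and 1.26 with shNup153-1) and Nlgn2, a member of this list and of the adhesion list, with shNup153-2 (0.81, adjusted p = 0.0491). In silenced cultures none of the 6 was called without the block, and 1 rose with it.

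Between states in shControl neurons, 3 of the 30 partners were higher and 3 lower in silenced cultures, and 4 of the 23 receptor and adhesion genes were higher and 2 lower, where 6.09% of all genes were higher and 6.27% lower. Agap2 (log2 difference 0.57, edgeR adjusted p = 0.0213) and Sharpin (0.63, adjusted p = 0.0419), which binds Shank, were among the higher ones. Homer3 (-1.31), Cnksr2 (-0.69) and Cyld (-0.66) were lower. Grin1 (0.90), Lrrc4b (0.79) and Nlgn3 (0.73) were higher, and Gria4 (-1.02) and Gria3 (-0.79) lower. Of the inhibitory list, Nlgn2 (0.76) and Iqsec3 (0.69) were higher and Gphn, the gephyrin gene, lower (-0.59). In shNup153-2 neurons 2 partners were higher and 8 lower in silenced cultures, 1 receptor or adhesion gene was higher and 7 lower, and 2 of the inhibitory list were lower, where 9.39% of all genes were higher and 12.3% lower. In the interaction no gene of these lists was called.

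Markers of cell types varied between groups beside these values. The 8 pan-neuronal markers summed to 5042 to 6462 CPM with shNup153-1, 5579 to 6949 with shNup153-2 and 4287 to 8037 in basal shControl, and in silenced cultures to 5719 to 6643 with shNup153-2 and 5500 to 7695 with shControl. None of them was at 0 in any group. Of 12 oligodendrocyte lineage markers, 11 were read with shNup153-1, where they summed to 800.4 and 815 CPM, against 114 to 285 in basal shControl, and 8 rose. All 12 were read with shNup153-2, at 254 to 382 CPM, and none of the 7 tested was called. The 10 astrocyte markers summed to 1452 and 3226 CPM with shNup153-1 and 2451 and 2808 with shNup153-2, against 603 to 2681 in basal shControl. In silenced cultures they summed to 281 to 1552 CPM with shNup153-2 and 277 to 1434 with shControl. All 10 had negative log2 values for silenced over basal, in shNup153-2 (median -1.23, 2 lower past the threshold) and in shControl (median -1.12, 1 lower). Of the oligodendrocyte lineage markers 6 were higher and 1 lower in silenced than in basal shNup153-2 cultures, and 3 were higher in silenced than in basal shControl. Of the 8 GABAergic markers, 5 had positive and 3 negative log2 values with shNup153-1. Slc32a1, the vesicular GABA transporter gene, was the only one that rose there (1.72, edgeR adjusted p = 0.0175). The 8 markers summed to 1483 and 2194 CPM with shNup153-1, above every basal shControl library. They summed to 488 to 566 CPM in silenced shNup153-2 and 449 to 505 in silenced shControl, against 1266 to 1308 in basal shNup153-2 and 758 to 1355 in basal shControl, and 6 were lower in silenced shControl than in basal shControl. The 6 glutamatergic markers summed to 840.0 and 1451 CPM with shNup153-1, 1544 and 1781 with basal shNup153-2 and 1490 to 1960 in basal shControl. With shNup153-2 at basal state 1 of the 6 rose, Slc17a7 (0.87, adjusted p = 0.0491), 1 fell, and 3 values were positive and 3 negative. With shNup153-1 none rose and 2 fell, Tbr1 (-1.20) among them. Slc17a6, a vesicular glutamate transporter gene, fell with both hairpins at basal state (-2.02 with shNup153-2 and -0.93 with shNup153-1) and with shNup153-2 under silencing (-1.40). Of 8 microglial markers 4 were read in basal cultures. Microglial sums were at most 1.69 CPM in any library, with 1 marker at 0 in silenced shNup153-2, 1 in basal shControl and 2 in silenced shControl. The endothelial and mural markers, 6 of them read in basal cultures, summed to at most 23.1 CPM, and the 5 fibroblast markers to at most 13.1 CPM. Silenced counts hold more symbols, so silenced sums could include further markers of the microglial and the endothelial and mural lists. The part of cell composition in the values of the scaffold genes was not tested.

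Profiles of the members were compared over the 12 libraries of basal and silenced shNup153-2 and shControl cultures, given here as a description in which libraries of a group share treatment and table. Shank1, Shank2, Shank3 and Dlg4 were correlated at 0.91 to 0.96 (Pearson, log2 CPM), and Shank3 and Dlgap3 at 0.95. Dlgap1, Dlgap2 and Dlg2 were correlated at 0.86 to 0.94, and these 3 had correlations of 0.28 to 0.67 with the Shank genes and 0.44 to 0.66 with Dlg4. Dlgap4 was correlated at 0.82 with Dlgap3, at 0.60 to 0.76 with the Shank genes and Dlg4, and at -0.28 with Dlgap1. How often other pairs of genes reach such values was not computed. Among 13125 genes compared, those with profiles most like Shank1 were Mtss2 (0.98), Iqsec3 (0.97) and Dot1l (0.97). For Shank2 they were Ttbk1 (0.99), Slx4 (0.98) and Larp1 (0.98), and for Shank3 Pcdh1, Actn1 and Ehd3 (0.99 each). Dlgap3 was most like Neurl1a (0.98), Ralgds (0.98) and Nsmf (0.97), Dlgap4 like Rnf10 (0.99), Desi1 and Rrp8 (0.97 each), and Dlg4 like Cenpq (0.97), Kansl1 and Ankrd11 (0.96 each). Dlgap1 was most like Kcna2, Dcaf12 and Esrrg (0.98 each), Dlgap2 like Fam120a, Fmn2 and Pik3c2a (0.98 each), and Dlg2 like Prpf8 (0.96), Hip1 and Kcnb2 (0.95 each).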

How the data were processed

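Poly(A) RNA of 14 libraries was analysed, from 16 labelled samples. Per the submitters' processing notes, the authors used FastQC, mm10 and featureCounts 2.0.1, and the deposited tables hold raw counts per gene. The aligner, annotation and strand setting were not given in the sources used here. For basal shNup153 samples, titles name the hairpin but descriptions name the control AAV, and groups follow the titles. Of the basal columns, 2 share 1 name and were not used, and the third labelled shNup153-1 replicate is not analysed here.

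Counts were tested with edgeR 4.0.16 in R 4.3.3 (TMM scaling, filterByExpr with a minimum count of 10, quasi-likelihood F test, two-sided, Benjamini-Hochberg adjustment over all genes tested, FDR 0.05). The 3 basal groups were fitted together, on the lines in register, for comparisons with shNup153-1. Basal shNup153-2 and shControl were fitted alone on all lines, silenced groups alone, and states and interaction in a joint fit of 4 groups. CPM use TMM factors over 14903 symbols. Exon lengths are those of GENCODE M21. The length trend is a lowess curve of each library's log2 CPM deviation on log2 exon length, subtracted as an offset, and 99.5% of tested symbols had a length. The alternatives were DESeq2 1.42.0, voom in limma 3.58.1, RLE factors, no filter, the length trend removed, a replicate block, other sets of groups and each library left out.

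Replicate numbers were taken to pair libraries where every same-numbered pair had residuals correlated above 0.1. In silenced cultures these correlations were 0.294, 0.573 and 0.616. The labels do not say what the numbers share, so the pairing is read from the data. Basal numbers did not meet the rule, but as an alternative the block was also fitted in comparisons with basal libraries. The block combined with the length trend was added after seeing the data, as was the block for the gene lists in silenced cultures.

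The members, gene lists and tests were chosen with earlier results of these data known. All members and Nup153 are named, as are Dlg1 and Dlg3. Also named are, of each list, at most 3 genes each way with the smallest p, and the 3 genes most correlated with each member. Some genes of the lists are not reported here. The tests were checked on simulated data in which 200 genes changed 4-fold. They recovered 46.5% of these in the interaction and up to 77% with shNup153-1 over shControl. False calls were 10.6% of calls in the interaction, 7.5% for silenced shNup153-2 over shControl and 4.29% to 6.12% elsewhere. Simulated libraries were independent and had no length trend, so the check does not cover those limits of these data. Litters are the replicates, per the labels. No 2 libraries were identical.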

Additional observations from a re-analysis of the deposited data

Results flagged for a closer look

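Dlg2 in basal shControl libraries was picked out because 1 sample lay far from the others: replicate 1 was at 530.4 CPM and the other 3 at 366 to 391 CPM, a gap of 0.846 of the whole range, above Dixon's critical value for 4 samples. The 9 members were each examined in this group, and chance picks out about 1 in 20 groups. Without that library the log2 fold change of Dlg2 with shNup153-2 at basal state was 0.79 (edgeR adjusted p = 0.0467), against 0.65 (adjusted p = 0.1) with it.

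Dlgap3 was picked out because its response differed between the hairpins: it was 1.28 higher on the log2 scale with shNup153-2 than with shNup153-1 at basal state (SE 0.27, edgeR adjusted p = 0.0379). Both shNup153-2 libraries (232 and 272 CPM) stood above both shNup153-1 libraries (101 and 106 CPM). Nup153 stood at 13.5 and 11.6 CPM with shNup153-2 and at 17.1 and 28.0 CPM with shNup153-1. The cause was not tested.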

How the results depend on the processing

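Counts of called members depended on the settings, and so did counts of all genes called, given below. With shNup153-1 at basal state, 2 rose, against 4 with the length trend removed, 1 in a fit of only the groups compared, 0 with the replicate block and 1 to 3 with a library left out. DESeq2 called Shank1 there (log2 fold change 1.25, adjusted p = 0.00995) beside Shank3 and Dlgap3. With basal shNup153-2, 6 rose, against 9 with DESeq2, 4 with all 3 basal groups on all lines as deposited and 0 to 7 with a library left out. For shNup153-2 over shNup153-1, 1 was higher, against 5 with DESeq2, 2 with the length trend removed, 0 with the block and 0 to 1 with a library left out. Under silencing 1 rose, against 2 with no filter, 2 with DESeq2, 3 with the block, 3 with block and length trend together and 0 to 2 with a library left out. For silenced over basal, 5 were higher in shControl (4 to 6 with a library left out). In shNup153-2, 4 were lower, against 1 with the length trend removed and 5 in a fit of only the groups compared (0 to 4 with a library left out), and 0 higher, against 1 with the length trend removed and 1 with the block. In the interaction 0 were lower, against 4 with DESeq2 and 1 with the length trend removed. Basal replicate numbers did not meet the rule for pairs: residuals of shNup153-1 and shControl correlated at -0.579 and -0.650 and those of shNup153-2 at 0.235 and 0.0522. With 2 libraries per basal hairpin, their residuals mirror each other, so this check cannot show that pairing is absent. Residuals of shNup153-1 replicate 1 went with shControl replicates 2 and 4 (0.650 and 0.380), and those of replicate 2 with 1 and 3 (0.579 and 0.547). With the block no gene at all was called for shNup153-1 or between hairpins. In silenced cultures 2215 genes rose with the block and 1946 fell, against 306 and 348 without it. In silenced cultures the block changed the calls of no members but Shank2 and Dlgap3.

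Signs changed for values near 0. Dlgap2 and Dlg4 with shNup153-1 were -0.046 and -0.017 with the block, and -0.64 to 0.54 and -0.36 to 0.34 with a library left out. Dlg2 with shNup153-1 ran from -0.82 to 0.039 with a library left out. Dlgap4 was -0.11 for shNup153-2 over shNup153-1 with the length trend removed and -0.071 to 0.11 under silencing with a library left out. For silenced over basal, Dlg2 in shControl ran from -0.076 to 0.18. In shNup153-2, Shank3, Dlg4 and Nup153 were 0.34, 0.26 and 0.031 with the length trend removed, and Shank3 ran from -0.10 to 0.090 with a library left out. The interaction of Nup153 ran from -0.11 to 0.21. Except where a fit has fewer libraries, the cause was not tested.

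DESeq2 called 1525 and 1621 genes (higher and lower) with shNup153-1, against 947 and 1024, 1924 and 1700 with basal shNup153-2, against 1164 and 716, 1171 and 943 between hairpins (650 and 511 with the length trend removed), against 408 and 243, and 911 and 934 under silencing, against 306 and 348. The block called 1938 and 2227 for silenced over basal in shControl, against 1274 and 1312. With the length trend removed 1330 rose with shNup153-1, and 586 with only the groups compared. With basal shNup153-2, 1083 rose with all 3 basal groups on all lines. Under silencing 391 rose with no filter and 2332 with block and length trend together. For silenced over basal in shNup153-2, 2245 were lower with the length trend removed and 3994 with only the groups compared, against 2583. There 2423 were higher with the length trend removed and 2346 with the block, against 1965. With 2 libraries per basal hairpin, members with small values could not be placed on either side of the threshold with any firmness.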
